A study of Rattus norvegicus with 64 samples.

Results

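The transcripts of 9 neuropeptide genes were followed through postnatal development of the rat entorhinal cortex. The set was defined by gene symbol, after earlier results of these data were known, and holds Cck, Tac1, Penk, Pdyn, Nts, Crh, Crhbp, Adcyap1, and Cort, which are 9 of the 17260 genes in the count tables. All but Crhbp encode peptide precursors, and Crhbp encodes the secreted protein that binds the peptide made from Crh. Total RNA of Long Evans rats was sequenced after removal of ribosomal RNA in 64 libraries, 32 from the medial entorhinal cortex (MEC) and 32 from the lateral entorhinal cortex (LEC). Each library came from LII or from the deeper layers III–VI as 1 piece (LDeep), dissected under a microscope from slices of animals aged P2, P9, P23, or P45. Each of the 16 combinations of region, layer, and age held 5 libraries of P2 rats, 4 for age P9, 3 for P23, and 4 for the oldest age. The labels name no other difference between the groups and do not tie libraries to animals, so p-values measure the spread between these libraries. Hand dissection limits the layer groups, since the surface lining of LII can come along with it and LDeep joins layers with different neurons.

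Neuropeptides are made as long precursors that enter the dense-core granules of neurons, are cut there by proconvertases, and are released on strong firing to act on G protein-coupled receptors. In the cortex the precursors of cortistatin and of several other peptides are carried mainly by GABAergic interneurons, while cholecystokinin and PACAP precursors are also made by glutamatergic neurons. The opioid precursors Penk and Pdyn give rise to enkephalins and dynorphins, with the delta, mu, and kappa opioid receptors as their targets. In tissue RNA of this kind, fewer cells that carry a transcript and less transcript per cell cannot be told apart.

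Counts on genes ranged from 3894334 to 11439143 per library with a median of 7569157.5, so 1 count stood for 0.0895 to 0.253 units of CPM, the counts scaled to library size, and 3 counts are taken as the floor. All 9 members passed the filter on low counts. Nts was at 0 in 12 libraries, and Adcyap1 in 1. None of the 100 pairs of replicates agreed within sampling noise, the lowest chi-square per degree of freedom being 3.08. Glutamatergic markers were present in every group, with 1 exception among the libraries. In MEC LII P2 replicate 1 the 6 glutamatergic markers summed to 22.3 CPM, where the median of the 5 libraries of this group was 714.5. In that library Slc17a7 was at 0.6 CPM (251.1 to 358.3 in the other 4 libraries) and Neurod6 at 0.4 CPM (182.8 to 232.3). The GABAergic markers were mixed. Gad1 reached 675.7 CPM (75.46 to 217.7), and Gad2, Slc32a1, Pvalb, Dlx1, and Dlx2 also lay above the other libraries. Lhx6 (11.1 CPM, 37.02 to 44.06), Sst (58.7, 70.47 to 127.4), Vip (1.4, 4.073 to 9.61), and Htr3a (3, 7.658 to 21.22) lay below them. The median correlation of replicate 1 with the other libraries of the group was 0.914, the lowest of the series. The next lowest, 0.9445, was that of MEC LII P2 replicate 3. The library therefore goes against its label as cortical LII tissue. Calls of members that changed without it are named, and part of the other results are given with and without it.

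The promoters of 4 members carry the letters TGACG, one arm of the cAMP response element, near their start in the sequences held by RefSeq for GRCr8. The windows are shown because cAMP-dependent factors are classical regulators of peptide genes, and no link to the levels was tested. Promoters of 250 bases before to 50 after the start were at hand for Tac1, Pdyn, Nts, Crhbp, Adcyap1, and Cort. The search covered both strands, and every hit below is the reverse complement CGTCA, in capitals, written 5′ to 3′ on the strand of the gene. The windows are chr4:36645333-36645428 (plus strand) for Tac1, chr7:39461008-39461107 (minus) for Nts, chr2:28439495-28439594 (minus) for Crhbp, and chr5:164845178-164845277 (minus) for Cort.
Tac1: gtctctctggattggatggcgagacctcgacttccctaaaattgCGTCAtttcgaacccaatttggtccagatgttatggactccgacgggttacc
Nts: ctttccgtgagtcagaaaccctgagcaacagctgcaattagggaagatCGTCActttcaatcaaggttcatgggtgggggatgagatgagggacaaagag
Crhbp: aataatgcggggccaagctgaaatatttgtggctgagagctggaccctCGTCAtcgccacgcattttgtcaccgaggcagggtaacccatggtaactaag
Cort: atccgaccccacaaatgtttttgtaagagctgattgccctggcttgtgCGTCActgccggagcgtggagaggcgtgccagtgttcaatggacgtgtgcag
The first base of CGTCA lay 206 bases before the start in Tac1, 171 in Nts, 100 in Crhbp, and 105 in Cort. The letters were found in 21.2% of all 33469 promoters of this length, and the whole palindrome TGACGTCA in 1.83% of them and in 0 of the 6 members. Pdyn and Adcyap1 held neither. The matches are a description of these letters and are no evidence that a factor binds there.

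Per length, Cck, the precursor of cholecystokinin, was by far the most abundant member, with a median over the 64 libraries of 286.1 CPM per kb of exon (8.119 to 995.2). Penk followed at 18.12 CPM per kb, then Tac1 at 10.81, Crhbp at 8.658, Adcyap1 at 7.096, and Cort at 6.381 CPM per kb. The lowest medians were those of Crh, Pdyn, and Nts, with 3.041, 2.922, and 0.6095 CPM per kb. The ranges of all members after Cck overlapped, and that of Cck overlapped all of them except Crh, which reached 6.622 CPM per kb. The order after Cck differed between groups. In LEC LII at P2 the mean of Penk was 26.76 CPM per kb and that of Tac1 3.569. In MEC LDeep at P9 they were 3.116 and 15.36 CPM per kb. The plot of levels by age shows every library.

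**Figure D1:**
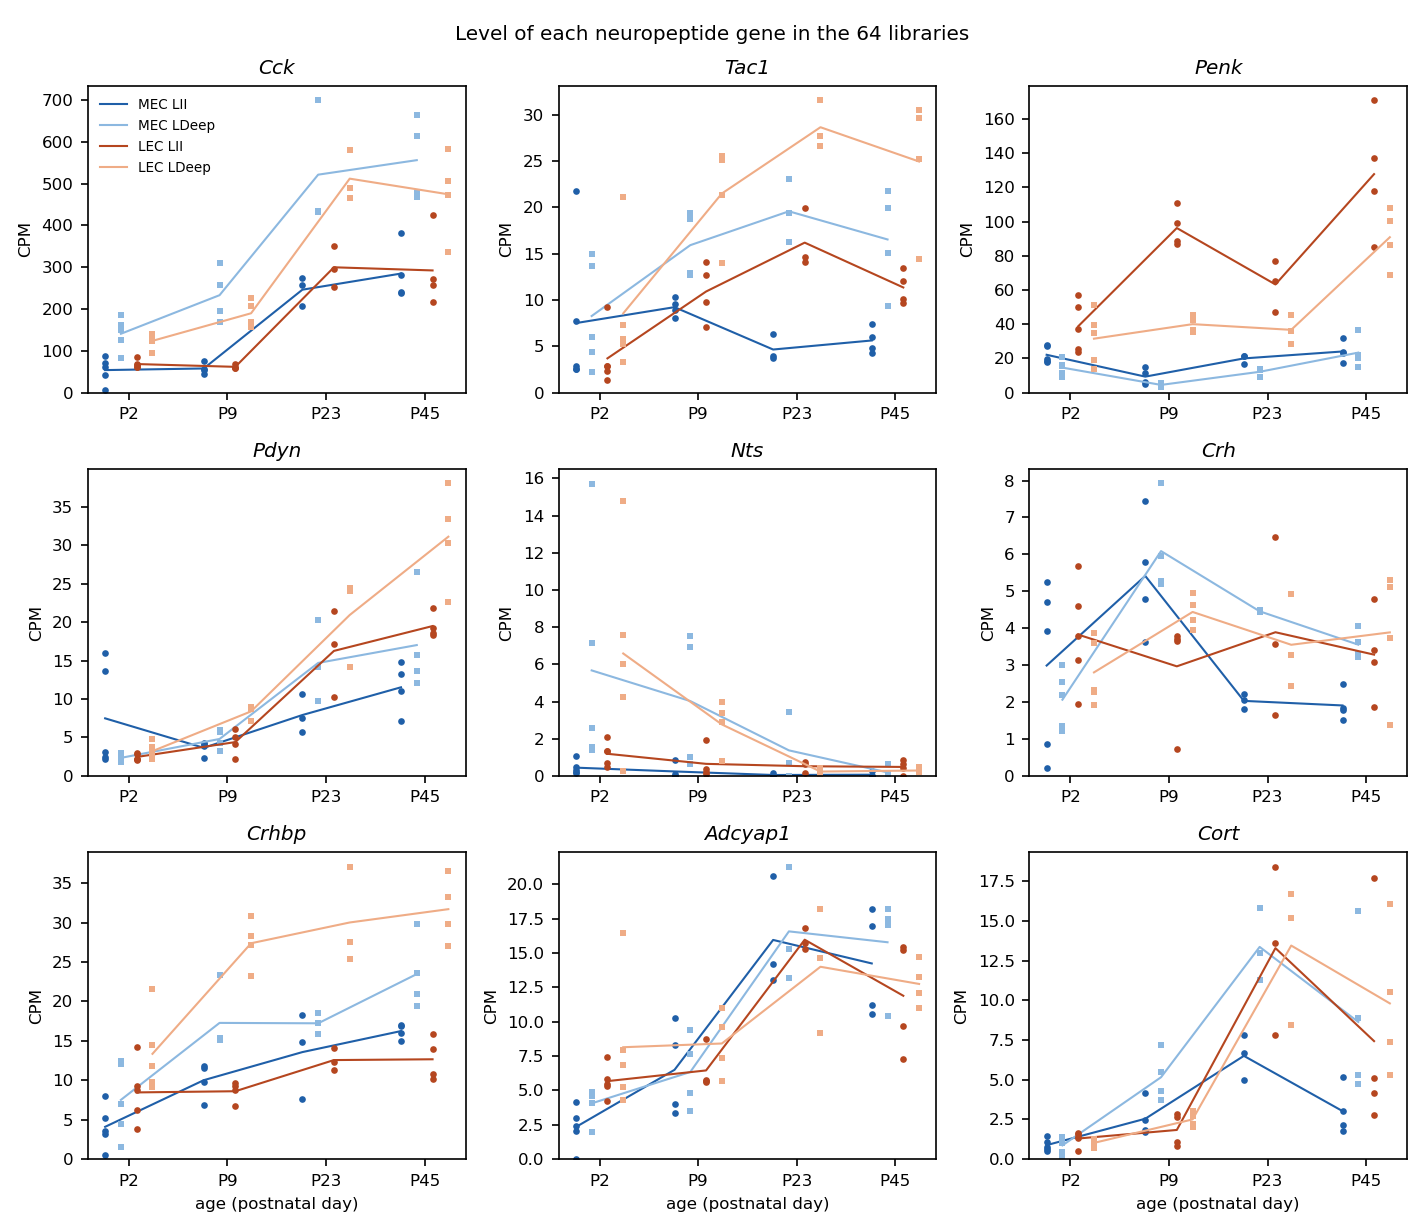
Level of each of the 9 genes in CPM (y axis, from 0) against age (x axis), with 1 point per library, lines through the group means, blue for MEC, red-brown for LEC, dark circles for LII, and light squares for LDeep. Cck, Pdyn, Adcyap1, and Cort rose between P9 and P23, Nts was highest in LDeep at P2, and Penk was higher in LEC than in MEC.

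The first question was how the 9 genes change as the cortex matures, compared as P23/P45 against P2/P9 over both layers and both regions. In all, 7 members rose, Nts fell, and Crh did not pass the test, so 8 of 9 were called. Of all 12521 genes tested 81.5% were called (41% upward, 40.5% downward), and the share among the members is near that background. The median LFC of the members was 0.82 against 0.006 for all genes. The largest rises were those of Cort (LFC 2.33 ± 0.159 SE, BH adjusted p = 1.34e-19, edgeR), Pdyn (1.95 ± 0.135, adjusted p = 3e-19), and Cck (1.92 ± 0.113, adjusted p = 5.08e-22). Without MEC LII P2 replicate 1 the same comparison called 8 members as well.

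Cort encodes cortistatin, a relative of somatostatin found in interneurons. In MEC LII its levels at P2 were 0.5, 1.424, 0.6631, 1.051, and 0.7547 CPM, and at P9 they were 1.818, 4.164, 2.483, and 1.695 CPM. At P23 they were 7.814, 4.997, and 6.687 CPM, and at P45 they were 3.033, 1.772, 5.171, and 2.117 CPM. All P23 libraries lay above all younger ones, and the P45 libraries overlapped those of P9. Averaged over layers and regions, Cort rose from P2 to P9 by an LFC of 1.49 ± 0.237 (adjusted p = 2.92e-07) and from P9 to P23 by 1.97 ± 0.222 (adjusted p = 3.36e-11). It then fell by 0.77 on the log2 scale from P23 to P45 (SE 0.213, adjusted p = 0.0238). That last call was lost without LEC LII P23 replicate 1 (adjusted p = 0.0593) or MEC LII P23 replicate 1 (adjusted p = 0.0507), and without all 4 libraries of P23 replicate 1, P23 replicate 2, P45 replicate 2, or P45 replicate 4 (0.184, 0.0713, 0.146, and 0.137).

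Pdyn, the dynorphin precursor, climbed through all 4 ages in LEC LDeep. Its levels there were 2.245, 2.355, 3.719, 2.961, and 4.822 CPM at P2 and 8.801, 8.927, 8.693, and 7.149 CPM at P9. They reached 24.48, 24.09, and 14.23 CPM at P23 and 38.09, 33.42, 30.31, and 22.67 CPM at P45. The groups of P2, P9, and P23 did not overlap, whereas those of P23 and P45 did. The LFC in LEC LDeep was 2.30 ± 0.261 (adjusted p = 4.87e-11), and in MEC LII it was 0.85 ± 0.269 (adjusted p = 0.00475). Without MEC LII P2 replicate 1 the latter was 1.01 ± 0.266 (adjusted p = 0.000835).

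Cck rose in each of the 4 combinations of region and layer, with LFCs of 2.24 ± 0.228 in MEC LII, 1.57 ± 0.222 in MEC LDeep, 2.19 ± 0.228 in LEC LII, and 1.68 ± 0.223 in LEC LDeep. In MEC LII it lay at 5.7, 42, 88.48, 61.72, and 71.6 CPM at P2 and at 44.95, 55.8, 55.1, and 75.41 CPM at P9. At P23 it lay at 258.5, 206.7, and 273.3 CPM, and at P45 at 237.1, 239.5, 380.6, and 281.8 CPM. No older library overlapped a younger one, and the lowest value of all is that of MEC LII P2 replicate 1. Without that library the LFC in MEC LII was 2.10 ± 0.158 (adjusted p = 5.34e-17). The step from P9 to P23 carried the change (LFC 1.74 ± 0.168, adjusted p = 3.34e-13).

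Adcyap1, the precursor of PACAP, rose by an LFC of 1.37 ± 0.14 (adjusted p = 5.37e-13), and by 1.33 ± 0.117 without MEC LII P2 replicate 1, in which it was at 0. In LEC LII it was at 4.255, 5.343, 7.466, 5.502, and 5.809 CPM at P2, and at 15.75, 16.84, and 15.32 CPM at P23. These groups did not overlap. The rise was called in all 4 combinations of region and layer, with LFCs from 0.68 ± 0.272 in LEC LDeep (adjusted p = 0.0249) to 1.96 ± 0.285 in MEC LII. Without MEC LII P2 replicate 1 the LFC in MEC LII was 1.785 ± 0.243. The call in LEC LDeep was lost without P2 replicate 1, P9 replicate 3, P23 replicate 1, or P23 replicate 2 of that group (adjusted p of 0.052, 0.0552, 0.0512, and 0.103).

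Crhbp rose by an LFC of 0.82 ± 0.127 (adjusted p = 7.51e-08) and Penk by 0.73 ± 0.109 (adjusted p = 3.85e-08). Tac1, the precursor of substance P and neurokinin A, rose by 0.49 ± 0.171 (adjusted p = 0.00759), and this call was lost without the 4 libraries of P23 replicate 3 (adjusted p = 0.0531). The average joins unlike groups, since the LFC of Tac1 was -0.71 ± 0.363 in MEC LII (adjusted p = 0.0817; -0.24 ± 0.329 without MEC LII P2 replicate 1), 0.63 ± 0.327 in MEC LDeep (0.0872), 1.08 ± 0.354 in LEC LII (0.00703), and 0.98 ± 0.323 in LEC LDeep (0.00727). Crh, the precursor of corticotropin-releasing hormone, had an LFC of -0.17 ± 0.161 over all groups (adjusted p = 0.314). In MEC LII alone Crh fell (LFC -1.01 ± 0.334, adjusted p = 0.00679), and without MEC LII P2 replicate 1, where it was at 0.2 CPM, by -1.17 ± 0.291 (adjusted p = 0.000408). In the limma fit with the replicate number as a block this call was lost (LFC -0.58, adjusted p = 0.185). Crh was at 3.636, 4.789, 7.449, and 5.79 CPM in MEC LII at P9 and at 1.814, 2.221, and 2.058 CPM at P23, with no overlap. The P2 libraries of MEC LII did overlap the older ones. They ranged from 0.2 to 5.256 CPM, or from 0.8525 CPM without replicate 1, against 1.512 to 2.498 CPM at P45.

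Nts, the neurotensin precursor, was the only member that fell over all groups (adjusted p = 2.28e-06). In MEC LDeep it was at 7.134, 2.555, 1.386, 1.579, and 15.71 CPM at P2 and at 6.936, 0.6391, 1.01, and 7.508 CPM at P9. It was at 0.6945, 0, and 3.419 CPM at P23, and at 0.6421, 0.1064, 0, and 0 CPM at P45. The libraries of 1 age differed widely, and the levels of neighbouring ages overlapped. The fall was called in MEC LDeep (LFC -3.12 ± 0.677, adjusted p = 6.74e-05) and in LEC LDeep (-4.01 ± 0.77, adjusted p = 1.03e-05). The libraries of MEC LII at P23 and P45 together held 3 counts of Nts in 7 libraries, so a fold for that group, or averaged over it, depends on the prior count and is not given.

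**Figure D2:**
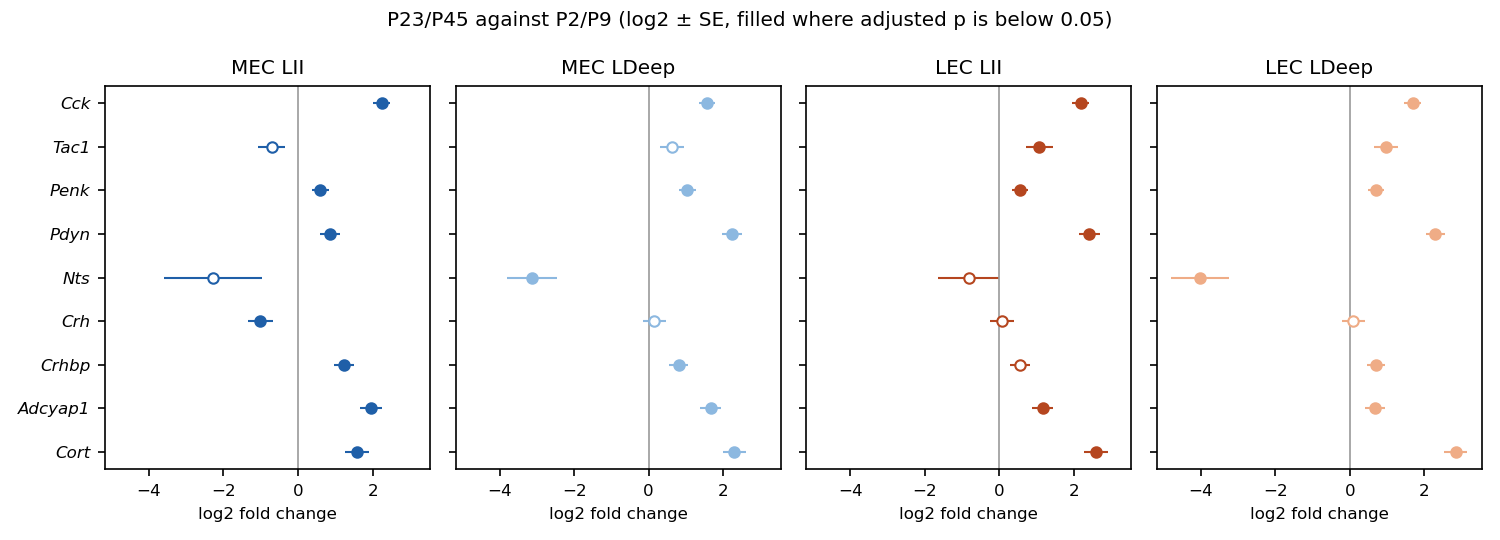
LFC of P23/P45 against P2/P9 (x axis, log2) for the 9 genes (y axis) in each combination of region and layer, with bars of 1 SE and filled points where the adjusted p was below 0.05. Of the 36 tests 28 were called, and the point of Nts in MEC LII, which was not called, depends on the prior count.

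The counts of calls by combination were 7 members in MEC LII (66.4% of all genes), 7 in MEC LDeep (66.2%), 6 in LEC LII (62.7%), and 8 in LEC LDeep (64.4%). By step, 6 members were called from P2 to P9 (63.3% of all genes), all upward. Of these, Pdyn and Adcyap1 were lost with counts summed per replicate number (adjusted p = 0.301 and 0.0902). Without MEC LII P2 replicate 1 Cck was called from P2 to P9 too (LFC 0.25 ± 0.102, adjusted p = 0.0275, against 0.32 ± 0.149 and 0.0539 with it). From P9 to P23, 6 members were called (64.6%), Nts downward. The calls of Penk and Nts from P9 to P23 each held in 34 of 41 alternatives and leave-outs. That of Penk joins opposite directions. Its mean rose in MEC (9.361 to 20.01 CPM in LII, 4.518 to 12.18 CPM in LDeep) and fell in LEC (96.25 to 63.25 CPM and 40.04 to 36.71 CPM). From P23 to P45 only Penk and Cort were called (3.83% of all genes), Penk upward with an LFC of 0.88 ± 0.164 (adjusted p = 0.000307).

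Other cell types also moved with age. The oligodendrocyte markers rose for 6 of 8 genes (median LFC 4.553), the astrocyte markers for 6 of 7 (1.447), and the microglia markers for 7 of 7 (1.333), whereas of the 10 GABAergic markers 4 rose and 4 fell (median -0.074). The part of these changes in the levels of the members was not tested.

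The next comparison was LII against LDeep, which asks in which layers the transcripts are found. Of the 9 members 6 were called in MEC (40.8% of all genes) and 5 in LEC (38.6%), and apart from Penk every call was higher in LDeep. Of the members 5 were higher in LDeep in MEC and 4 in LEC, where 19.8% and 21.2% of all genes were called in that direction and 21% and 17.3% in the other. The median LFC of the members was -0.649 in MEC and -0.579 in LEC, against -0.03 and -0.057 for all genes. The 6 calls in MEC stood at 6 without MEC LII P2 replicate 1.

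Cck was called lower in LII in both regions. At P9 in MEC it was at 258, 195.1, 168.8, and 310.2 CPM in LDeep, against the values of LII given above, with no overlap. At P9 in LEC it was at 58.29, 60.34, 68.92, and 59.15 CPM in LII and at 206.6, 226, 169.5, and 157.1 CPM in LDeep. The layer LFC was -1.36 ± 0.161 in MEC (adjusted p = 1.15e-09) and -0.99 ± 0.16 in LEC (adjusted p = 1.31e-06), and without MEC LII P2 replicate 1 it was -1.28 ± 0.11 in MEC.

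Tac1 was lower in LII as well, with LFCs of -1.13 ± 0.245 in MEC (adjusted p = 0.000175) and -1.03 ± 0.242 in LEC (adjusted p = 0.000479). In MEC at P23 Tac1 was at 3.907, 3.748, and 6.301 CPM in LII and at 16.25, 19.42, and 23.02 CPM in LDeep. In MEC at P45 it was at 4.282, 6.003, 7.388, and 4.838 CPM in LII and at 19.91, 9.362, 15.09, and 21.74 CPM in LDeep. The layers did not overlap at either age. At P2 MEC LII replicate 1 held 21.8 CPM, more than any LDeep library of that age in MEC, and without it the MEC difference was -1.36 ± 0.217 (adjusted p = 1e-06).

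Crhbp was lower in LII by an LFC of -0.65 ± 0.182 in MEC (adjusted p = 0.00329) and -1.22 ± 0.182 in LEC (adjusted p = 2.01e-07). In LEC at P45 it was at 13.9, 10.12, 15.87, and 10.74 CPM in LII and at 29.86, 33.3, 36.59, and 27.03 CPM in LDeep. The layers of LEC did not overlap at P9, P23, or P45. A difference of the layer contrast between the regions was not called for Crhbp (LFC 0.58 ± 0.256, adjusted p = 0.342).

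Nts was lower in LII of MEC over all ages (adjusted p = 0.000194), with no fold given because of the few counts in MEC LII at P23 and P45. At P2, where it was best counted, MEC LII held 0.5, 0.178, 1.042, 0.3003, and 0.1887 CPM, all below the LDeep values above. The single-age LFC was -3.57 ± 0.808 (adjusted p = 0.0031). At P2 in LEC, Nts was at 0.4728, 1.336, 2.084, 1.338, and 0.7041 CPM in LII and at 4.266, 0.2771, 5.998, 7.595, and 14.78 CPM in LDeep (LFC -2.46 ± 0.753, adjusted p = 0.022). The call over all ages in MEC was lost without MEC LDeep P45 replicate 1 (adjusted p = 0.11) or all 4 libraries of that number and age (0.119). The P2 call in LEC was lost without LEC LDeep P2 replicate 5 (adjusted p = 0.106), LEC LII P2 replicate 1 (0.0672), or LEC LII P2 replicate 5 (0.0555). Over all ages the LEC difference was -0.62 ± 0.643 (adjusted p = 0.474), and the contrast between the regions was not called (adjusted p = 0.147).

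Cort was lower in LII of MEC (LFC -0.92 ± 0.23, adjusted p = 0.00103) and had an LFC of -0.13 ± 0.23 in LEC (adjusted p = 0.698), where limma with quantile normalization called it at -0.66 (adjusted p = 0.0273). At P23 the MEC LII values given above lay below all of the MEC LDeep values of 11.25, 12.99, and 15.84 CPM. In LEC at P23 LII held 18.4, 13.61, and 7.844 CPM and LDeep 16.68, 15.2, and 8.456 CPM, which overlap. The difference between these layer contrasts was -0.79 ± 0.323, which did not pass the test (adjusted p = 0.278).

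Pdyn was lower in LII of LEC (LFC -0.58 ± 0.192, adjusted p = 0.0135), and this was lost without LEC LII P23 replicate 3 (adjusted p = 0.0539) or the 4 libraries of P23 replicate 2 (0.0508). In MEC its layer difference changed with age. At P2 Pdyn was at 13.6, 2.491, 16.01, 3.153, and 2.17 CPM in MEC LII and at 1.855, 2.555, 2.541, 2.932, and 1.826 CPM in MEC LDeep. Replicates 1 and 3 of LII stood far above the remaining libraries, which overlapped LDeep. They are also the libraries with the lowest correlations with their group in the series, and no fit left out both. At P45 it was at 13.2, 11.02, 14.78, and 7.106 CPM in LII and at 15.73, 12.13, 26.58, and 13.64 CPM in LDeep. The layer difference at P23/P45 minus that at P2/P9 was -1.39 ± 0.386 (adjusted p = 0.0211), the only 1 of the 9 members called there (5.18% of all genes). It was -1.23 ± 0.376 without MEC LII P2 replicate 1 (adjusted p = 0.0378), and Crh was then called too (-1.33 ± 0.394, adjusted p = 0.0314, against -1.17 ± 0.456 and 0.136 with it). The call was lost without MEC LDeep P23 replicate 2 (adjusted p = 0.0605), MEC LII P23 replicate 3 (0.0507), or all 4 libraries of P2 replicate 1 (0.0518), P2 replicate 3 (0.0564), or P23 replicate 2 (0.108). In LEC no member was called for a change of the layer difference with age (2.22% of all genes).

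Adcyap1 and Crh were not called between layers. The LFCs of Adcyap1 were -0.25 ± 0.2 in MEC and -0.21 ± 0.197 in LEC, and those of Crh were -0.43 ± 0.228 and -0.07 ± 0.226.

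Penk was the exception, with higher levels in LII than in LDeep by an LFC of 0.60 ± 0.163 in MEC (adjusted p = 0.00241) and 0.71 ± 0.148 in LEC (adjusted p = 9.57e-05). At P9 in LEC it was at 110.6, 86.68, 98.97, and 88.72 CPM in LII and at 36.44, 45.67, 35.45, and 42.6 CPM in LDeep, with no overlap. At single ages Penk was called between layers only at P9, in both regions. In MEC at P45 its LFC was 0.05 ± 0.301 (adjusted p = 0.951), with means of 24.06 CPM in LII and 23.4 CPM in LDeep.

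**Figure D3:**
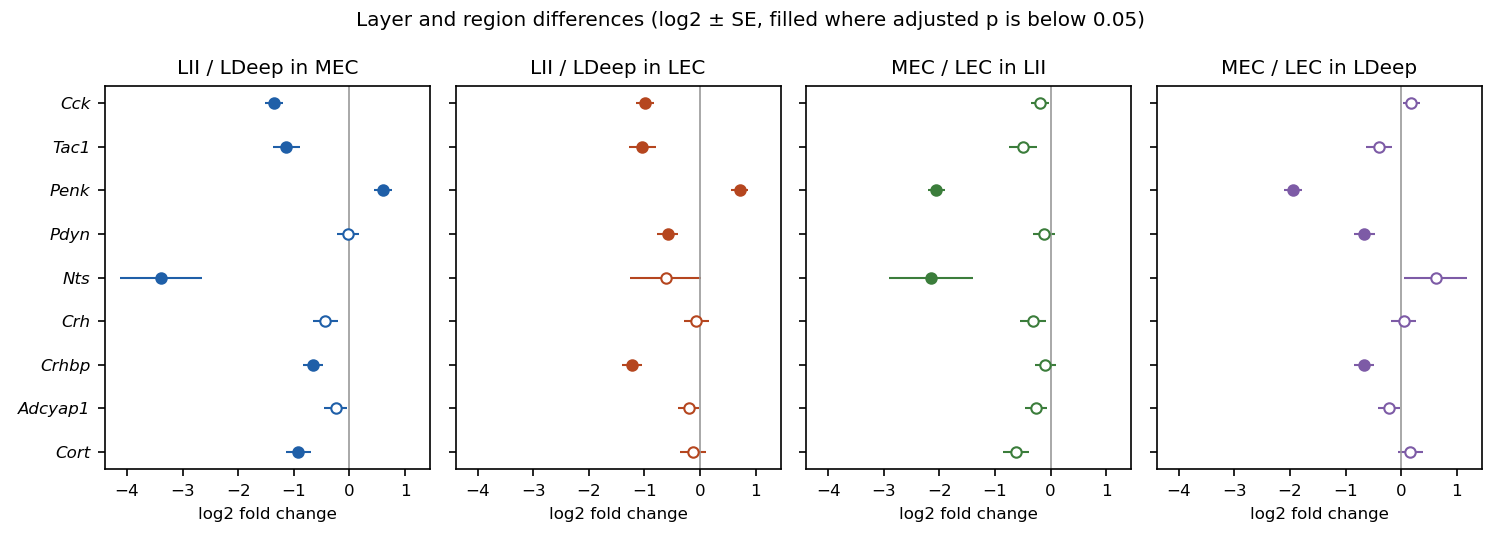
LFC of the 9 genes (y axis) for LII against LDeep in MEC and in LEC and for MEC against LEC in LII and in LDeep (x axis, log2), with bars of 1 SE and filled points where the adjusted p was below 0.05. Penk is the only gene called above 0 between layers and lies near -2 in both panels between regions.

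At single ages 18 of 72 layer tests of the members were called. Of all genes 9.14%, 17.7%, 16.5%, and 14.7% were called in MEC from the youngest age to the oldest, and 12%, 15.5%, 11.2%, and 13.2% in LEC. Cck was called at all 4 ages in MEC and at P2 and P9 in LEC. Its calls at P23 and P45 in MEC and at P2 in LEC were each lost without single libraries, 4, 5, and 8 of them in turn (adjusted p of up to 0.203, 0.089, and 0.0802). In MEC, Tac1 at P45 was lost in 6 of 14 alternatives and leave-outs, Penk at P9 in 6 of 14, and Cort at P45 in 2 of 14. Crhbp at P23 in LEC was lost in 5 of 12. Pdyn at P2 in MEC was lost with limma and quantile normalization (adjusted p = 0.149).

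Markers of other cells differed between the layers too. Of the 10 meningeal fibroblast markers 9 were higher in LII in MEC (median LFC 3.067) and 9 in LEC (4.621). Their summed level per group had medians of 807.3 to 1331 CPM in LII and 47.71 to 210.8 CPM in LDeep, although 1 LDeep library of MEC at P2 reached 1170 CPM. Astrocyte markers were higher in LII for 6 of 7 genes in MEC and 5 of 7 in LEC, and endothelial markers for 5 of 5 in both. Of the 6 glutamatergic markers 3 were lower and 1 higher in LII in each region (median LFC -0.451 in MEC and -0.642 in LEC), and 4 lower and 1 higher without MEC LII P2 replicate 1. Oligodendrocyte markers were lower in LII for 7 of 8 genes in MEC and 6 of 8 in LEC. Of the 10 GABAergic markers 4 were higher and 2 lower in LII of MEC, and 2 were higher and 3 lower in LII of LEC. Without MEC LII P2 replicate 1 the count in MEC was 2 higher and 2 lower. The part of these cells in the layer differences was not tested.

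The third comparison was MEC against LEC. Penk, the enkephalin precursor, was lower in MEC in both layers, by an LFC of -2.06 ± 0.157 in LII (adjusted p = 1.52e-14) and -1.94 ± 0.161 in LDeep (adjusted p = 5.79e-13), which is 4.15-fold and 3.85-fold. Called with Penk were Nts in LII and Pdyn and Crhbp in LDeep, making 2 of 9 in LII (12.6% of all genes) and 3 of 9 in LDeep (5.77%). All 5 calls were lower in MEC, where 4.28% of all genes in LII and 2.96% in LDeep were called in that direction and 8.35% and 2.81% in the other. Of the 10 GABAergic markers 2 were higher and 1 lower in MEC in LII, and 1 was lower in LDeep (3 lower without MEC LII P2 replicate 1, median LFC -0.255). Oligodendrocyte markers were higher in MEC for 4 of 8 genes in LII and 3 of 8 in LDeep (3 and 5 without that library), and no meningeal marker was called (0 in LII and 1 in LDeep without it). Without that library 12.3% of all genes were called in LII and 7.21% in LDeep, although it is no part of the LDeep contrast. The part of these cells in the region differences was not tested.

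At P2 Penk was at 19.7, 27.58, 18.47, 17.72, and 27.17 CPM in MEC LII and at 37.2, 25.38, 23.96, 57.1, and 50.34 CPM in LEC LII, which overlap. At P9 it was at 5.123, 14.99, 6.03, and 11.3 CPM in MEC LII, below each of the LEC LII values given above, by an LFC of -3.34 ± 0.325 (adjusted p = 4.81e-10). In LDeep at P9 the MEC held 3.468, 3.994, 4.748, and 5.863 CPM, against 35.45 to 45.67 CPM in LEC (LFC -3.13 ± 0.342, adjusted p = 1.24e-08). At P23 Penk was at 17.02, 21.66, and 21.35 CPM in MEC LII and at 65.48, 47.29, and 76.98 CPM in LEC LII. At P45 it was at 17.13, 23.23, 32.01, and 23.89 CPM in MEC LII and at 137.2, 85.08, 117.8, and 170.9 CPM in LEC LII. The regions did not overlap in either layer at P9, P23, or P45.

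The size of this difference was not constant with age. Averaged over layers, the MEC to LEC difference moved by an LFC of -2.27 ± 0.299 from P2 to P9 (adjusted p = 7.1e-06) and by 1.61 ± 0.337 from P9 to P23 (adjusted p = 0.00993). These tests were added after the values had been seen, and Penk was the only member called in either, where 0.248% and 0.391% of all genes were called. Without MEC LII P2 replicate 1 the first was -2.29 ± 0.304 (adjusted p = 9.94e-06). 

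**Figure D4:**
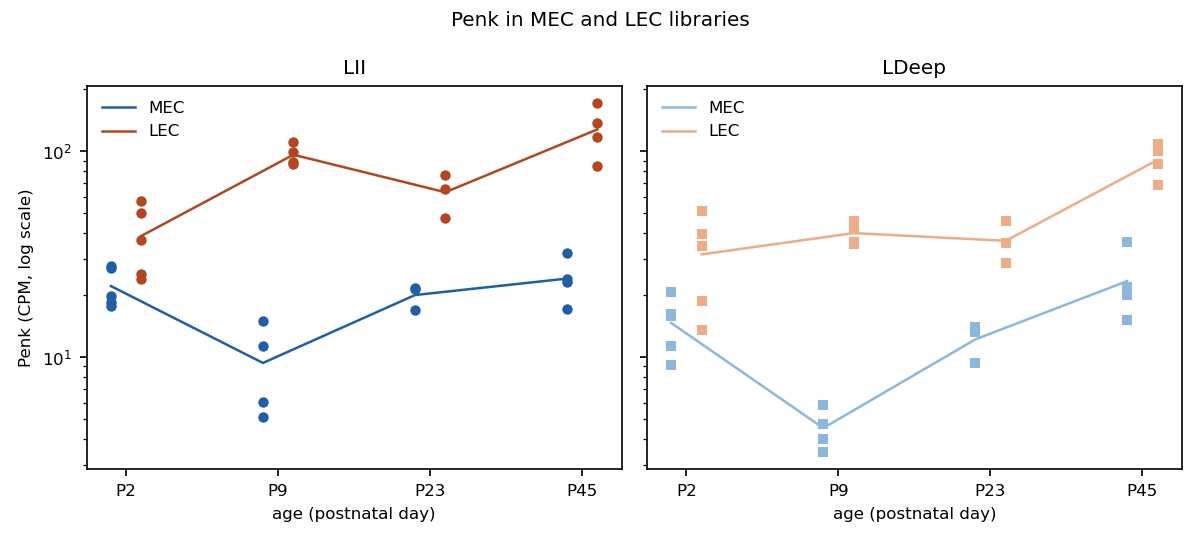
Penk level in CPM on a log scale (y axis) against age (x axis) in MEC and LEC, LII on the left and LDeep on the right, with 1 point per library and lines through the group means. The P9 libraries of MEC are the lowest in each panel, between 3.468 and 14.99 CPM, while those of LEC lie between 35.45 and 110.6 CPM.

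Pdyn in LDeep was lower in MEC by an LFC of -0.66 ± 0.19 (adjusted p = 0.0227). In LDeep at P9 it was at 5.736, 4.314, 5.96, and 3.188 CPM in MEC, below all 4 LEC values given above. The call over all ages was lost without MEC LDeep P23 replicate 3 (adjusted p = 0.0564) or the 4 libraries of P9 replicate 2 (0.0524), P23 replicate 1 (0.0832), P45 replicate 1 (0.0627), or P45 replicate 2 (0.0593). Crhbp in LDeep was lower in MEC by -0.67 ± 0.175 (adjusted p = 0.0104), and at P23 it was at 15.84, 18.5, and 17.32 CPM in MEC and 25.43, 27.53, and 37.06 CPM in LEC, with no overlap. That call was lost without the 4 libraries of P23 replicate 3 (adjusted p = 0.0545). Nts in LII was lower in MEC (adjusted p = 0.0494), a call at the threshold that was lost in 35 of the 53 alternatives and leave-outs, MEC LII P2 replicate 1 among them (adjusted p = 0.0648). It rests on few counts in MEC LII against LEC LII, 21 against 34 at P2, 7 against 21 at P9, 1 against 9 at P23, and 2 against 13 at P45, so no fold is given.

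In LII the region difference of 2 members changed between the younger and older ages (2.14% of all genes). For Pdyn it moved by an LFC of -1.56 ± 0.391 (adjusted p = 0.0156), and by -1.41 ± 0.381 without MEC LII P2 replicate 1 (adjusted p = 0.0278). MEC LII P2 replicate 3, also high in Pdyn, stayed in that fit, and no fit left out both. At P45 Pdyn in LEC LII was at 19.2, 18.59, 21.84, and 18.35 CPM, above all MEC LII libraries. For Tac1 the change was -1.79 ± 0.508 (adjusted p = 0.0448), but -1.33 ± 0.45 without MEC LII P2 replicate 1 (adjusted p = 0.114), and the call was lost in 34 of 53 alternatives and leave-outs. Tac1 in LEC LII was at 14.09, 14.58, and 19.88 CPM at P23 and at 10.11, 9.706, 13.48, and 12.09 CPM at P45, above all MEC LII values of those ages. Over all ages Tac1 in LII had an LFC of -0.50 ± 0.255 (adjusted p = 0.21), and without that library it was called (-0.74 ± 0.226, adjusted p = 0.0201). In LDeep no member was called for such a change (0.599% of all genes).

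At single ages 8 of 72 region tests were called, and 6 of these were Penk at P9, P23, and P45 in both layers. Of all genes 5.8%, 1.63%, 2.19%, and 4.51% were called in LII from the youngest age to the oldest, and 0.319%, 1.87%, 0.687%, and 1.65% in LDeep. The remaining calls, Pdyn and Adcyap1 in LII at P2, were both lost without MEC LII P2 replicate 1 (adjusted p of 0.0561 and 0.18), and that of Adcyap1 also without any of 6 other single libraries (0.051 to 0.0967). Penk in LDeep at P23 was lost without MEC LDeep P23 replicate 1 (adjusted p = 0.173), LEC LDeep P23 replicate 1 (0.165), or MEC LDeep P23 replicate 3 (0.0716). None of the 9 members was called for a layer difference that itself differed between MEC and LEC, where 1.24% of all genes were called by edgeR. At an unadjusted p below 0.05 there were 4 members and 1505 of the 12521 genes. DESeq2 called 1 member, with no share of all genes given for that fit.

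Receptors of the peptides, with the sorting receptor Sort1, were taken as a list of 22 genes, of which 21 passed the filter. With age 16 of the 21 were called (11 up, 5 down, 81.5% of all genes called). Ntsr2, a neurotensin receptor found in astrocytes, rose most (LFC 5.54 ± 0.134, adjusted p = 4.44e-39). In MEC LDeep its level was 0.4856 ± 0.2887 CPM (SD, n = 5) at P2 and 105.1 ± 5.601 CPM (SD, n = 4) at P45. Vipr1, a receptor that also binds PACAP, rose by 3 ± 0.1, and Sstr3, a somatostatin receptor that binds cortistatin, by 2.35 ± 0.07. Cckar, the cholecystokinin A receptor, fell. It was at 3.612 ± 0.5124 CPM (SD, n = 4) in LEC LDeep at P9 and at 0.1352 ± 0.1187 CPM (SD, n = 4) at P45, and no fold is given because it was at 0 in all 3 libraries of MEC LII at P23. For the same reason only the direction is given between layers of MEC (lower in LII, adjusted p = 0.0389) and between regions in LII (lower in MEC, adjusted p = 0.0126).

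Between layers 15 of the 21 receptor genes were called in MEC (40.8% of all genes), 11 of them higher in LDeep, and 10 in LEC (38.6%), all higher in LDeep. The median LFC was -0.276 and -0.253, against -0.03 and -0.057 for all genes. Sstr2, which binds somatostatin and cortistatin, was lower in LII by an LFC of -1.88 ± 0.127 in MEC (adjusted p = 2.12e-17) and -2.28 ± 0.135 in LEC (adjusted p = 5.34e-19). At P45 in LEC it was at 7.532 ± 2.305 CPM in LII and 33.25 ± 6.329 CPM in LDeep (SD, n = 4 each). The mu opioid receptor gene Oprm1 was lower in LII in both regions (-1.26 ± 0.187 and -1.22 ± 0.189), and the delta receptor gene Oprd1 was lower in LII of LEC by -1.72 ± 0.261. In the same region Tacr3, the neurokinin B receptor, was lower in LII by -1.64 ± 0.253. Crhr2, a receptor for corticotropin-releasing hormone and the urocortins, went the other way and was higher in LII of MEC by 1.52 ± 0.258 (adjusted p = 3.24e-06).

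Between regions 9 of 21 receptor genes were called in LII (6 higher in MEC, 12.6% of all genes), and 7 without MEC LII P2 replicate 1. Tacr3 was higher in MEC LII by 1.35 ± 0.254 (adjusted p = 9.57e-05), and by 1.41 ± 0.241 without that library. In MEC LII at P45 it was at 9.836 ± 2.046 CPM and in LEC LII at 4.424 ± 1.686 CPM (SD, n = 4 each). In LDeep 2 of 21 were called (5.77%).

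Of 13 processing and granule genes that passed the filter, 12 were called with age (81.5% of all genes), 11 of them upward, with a median LFC of 1.176 against 0.006 for all genes. Scg5, the chaperone 7B2 of proconvertase 2, rose by 2.17 ± 0.059, and its client Pcsk2 by 1.69 ± 0.062. Proconvertase 1 (Pcsk1) rose by 1.59 ± 0.074 and the granule protein Chgb by 1.55 ± 0.062. Between layers Pcsk5 was lower in LII by -1.66 ± 0.159 in MEC and -1.03 ± 0.156 in LEC, and Scg2, a secretogranin, by -1.13 ± 0.217 in LEC. Scg2 was higher in MEC than in LEC in LII by 1.07 ± 0.217 (adjusted p = 0.000296). Of the 13, 5 were called between layers in MEC (7 without MEC LII P2 replicate 1; 40.8% of all genes) and 6 in LEC (38.6%), 7 between regions in LII (12.6%), and 3 in LDeep (5.77%).

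**Figure D5:**
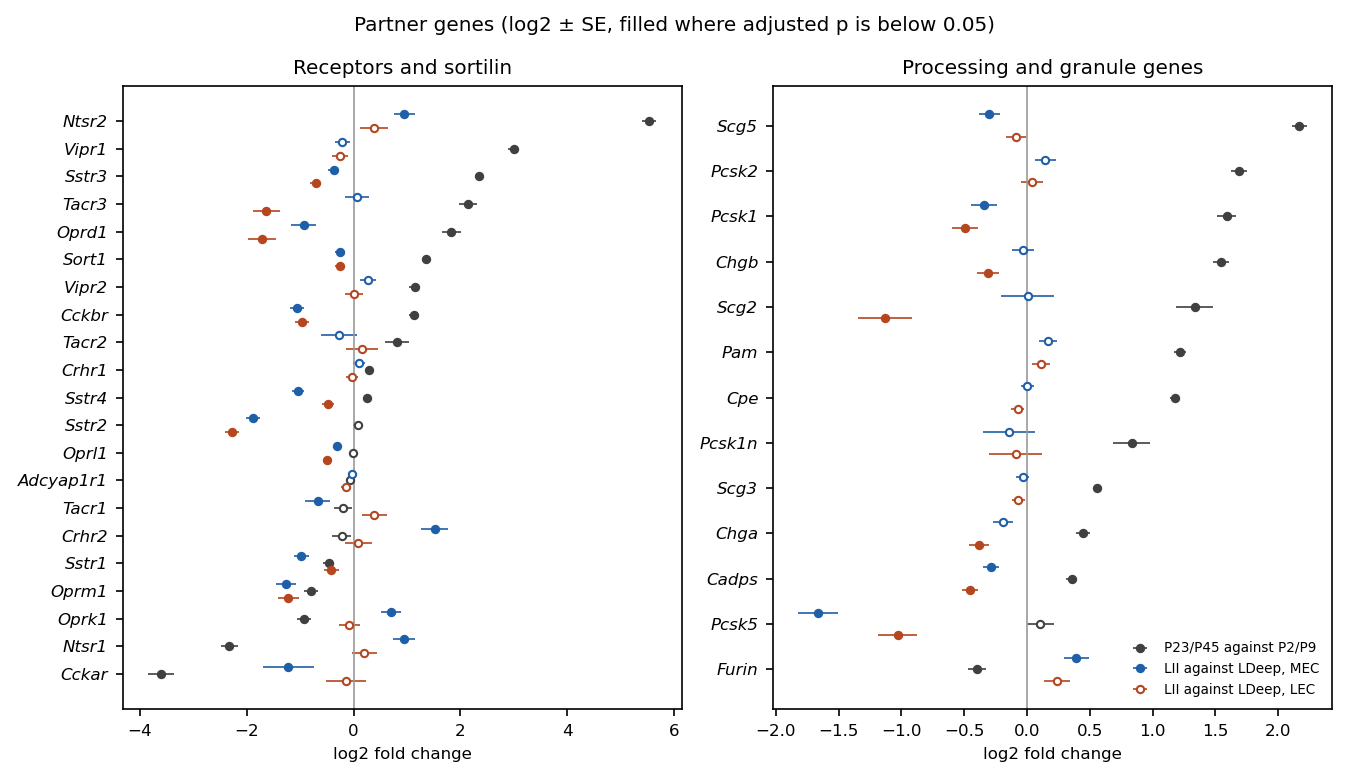
LFC (x axis, log2) of the receptor genes and of the processing and granule genes (y axis) with age and between layers in MEC and LEC, with bars of 1 SE and filled points where the adjusted p was below 0.05. Most processing genes lie above 0 with age, and Sstr2 lies near -2 between layers in both regions.

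A list of 17 further neuropeptide genes that passed the filter, Sst, Npy, and Vip among them, served as a comparison. Of these, 12 were called with age (9 up, 81.5% of all genes called), 11 between layers in MEC (8 higher in LII, 40.8%), and 10 in LEC (6 higher in LII, 38.6%). The difference between these counts and those of the 9 members was not tested.

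For each member the 2 most similar genes over the 64 libraries were found by Pearson's r of log2 CPM, as a description, since the libraries share ages. Cck resembled Dmtn (r = 0.924) and Tmem178a (0.918), and Pdyn resembled Pnmal1 (0.911) and Kcnh1 (0.906). Cort resembled Ensa (0.901) and Uqcr11 (0.893). Adcyap1 resembled Syn2 (0.852) and Slc17a7 (0.849). Penk resembled Plcxd3 (0.828) and Gcnt2 (0.813), Tac1 resembled Bex2 (0.827) and RGD1305587 (0.82), and Crhbp resembled Tmem178a (0.806) and Matk (0.798). The closest genes were less similar for Nts (Neto2, 0.731, and Mat1a, 0.709) and for Crh (Hps3, 0.599, and Fam49a, 0.596).

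In the genome build of the count tables, rn6, Cck lies on chromosome 8 (130120525-130127109), Tac1 on 4 (33638853-33646821), Penk on 5 (17056419-17061361), and Pdyn on 3 (122194329-122206671). Nts lies on 7 (44111594-44120998), Crh on 2 (104459999-104461863), Crhbp on 2 (25141471-25153334), Adcyap1 on 9 (121707926-121713124), and Cort on 5 (165942780-165944221). All except Tac1 are on the minus strand. No exon of a member overlaps an exon of another gene in the tables.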

How the data were processed

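Total RNA libraries were made with a stranded kit after ribosomal depletion and sequenced as paired reads of 100 bases. Per the submitters' processing notes, bcl2fastq 1.8.4, Trimmomatic 0.33, STAR 2.4.0, and featureCounts of Subread 1.4.6-p1 were used with the rn6 build. The authors deposited 1 table of raw counts per gene and library, counted on the sense strand from pairs with both ends mapped. A pair that overlapped several genes was counted for each of them, and counts hold no molecular identifiers, so the floor of 3 counts covers counting error only, while SEs carry the spread between libraries.

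The 9 members and the gene lists were chosen with earlier results of these data known. Counts were fitted with edgeR 4.0.16 in R 4.3.3 (filterByExpr, TMM, robust quasi-likelihood test, 16 group means over all 64 libraries), a choice tested on simulated data. LFCs are layer (LII minus LDeep), region (MEC minus LEC), or age (older minus younger) contrasts that weight groups equally, each with its SE. Benjamini-Hochberg adjustment covered 12521 genes at 0.05. CPM are TMM-scaled, and log2 CPM used a prior count of 2. Of the lists, receptor and processing genes were named where the adjusted p was below 0.05 and the absolute LFC above 1, at most 4 per list and contrast. Alternatives were DESeq2 1.42.0, limma 3.58.1 with quantile normalization, other size factors, no filter, fits on the libraries of 1 region, a block on the replicate number, summed counts, and leave-outs of libraries and of replicate numbers. For age contrasts the block was fitted with limma, and for the others with edgeR.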

Additional observations from a re-analysis of the deposited data

Results flagged for a closer look

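In 108 sets of 4 or 5 libraries of 1 gene and group, 11 held a library far from the others by Dixon's ratio of its gap to the range, where chance gives about 1 in 20. In MEC LII at P2 replicate 1 was apart for Cck (5.7 CPM, ratio 0.725) and Adcyap1 (0 CPM, ratio 0.773), and this library also lacked the glutamatergic markers. Adcyap1 was apart in LEC LII P9 replicate 3 (8.721 CPM, ratio 0.934), MEC LDeep P2 replicate 1 (1.998 CPM, ratio 0.794), and MEC LDeep P45 replicate 2 (10.43 CPM, ratio 0.877). Cort was low in LEC LII P2 replicate 3 (0.5209 CPM, ratio 0.806), and Crh was low in LEC LII P9 replicate 1 (0.7241 CPM, ratio 0.976). Crhbp was high in MEC LDeep P9 replicate 4 (23.35 CPM, ratio 0.957). Nts was above 0 in 1 of the 4 libraries of MEC LII at P45, replicate 3 (0.2463 CPM, ratio 1). Pdyn was low in LEC LDeep P9 replicate 4 (7.149 CPM, ratio 0.878) and in MEC LII P9 replicate 3 (2.365 CPM, ratio 0.834).

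By a test of the difference itself, 5 contrasts differed between groups. The MEC to LEC difference of Penk moved by an LFC of -2.27 from P2 to P9 and by 1.61 from P9 to P23. That of Pdyn in LII moved by -1.56 and that of Tac1 in LII by -1.79 between the younger and older ages, and the layer difference of Pdyn in MEC moved by -1.39.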

How the results depend on the processing

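Of the member results under the alternatives, 4555 kept their direction and side of the threshold, 177 lost and 16 gained a call, and 23 changed sign. Of the counts of members called, 863 stayed within 1.5 times and 77 did not. No shares of all genes are given beside the counts in this section, so they only show how calls moved from the main fit. Between regions in LII the count of 2 was 1 with limma and quantile normalization and 1 without a filter, and 1 to 3 under leave-outs. From P23 to P45 the count of 2 was 1 with summed counts and 1 to 2 under leave-outs. For the layer difference between regions DESeq2 called 1 (Nts, adjusted p = 0.0375) in place of 0. For the layer difference with age in MEC the count of 1 was 0 with limma and quantile normalization, 0 in the fit on MEC alone, and 0 to 2 under leave-outs. For the region difference with age in LII the count of 2 was 1 without a filter and 1 to 2 under leave-outs.

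Signs changed under leave-outs for uncalled LFCs near 0, namely Pdyn between layers of MEC (-0.162 to 0.073), Crh between layers of LEC (-0.209 to 0.093), and Crh between regions in LDeep (-0.028 to 0.13). Penk from P9 to P23 went from 0.44 to -0.23 with counts summed per number (adjusted p = 0.369). Summing weights the groups by their counts, where the main contrast weights them equally, and the group means of Penk fell in LEC and rose in MEC. The part of this weighting in the change of sign was not tested. With limma and quantile normalization Penk between layers of MEC was not called (LFC 0.44, adjusted p = 0.0596), while Crh (-0.96) and Adcyap1 (-0.66) were, and Cort was called between layers of LEC (-0.66). Pdyn from P2 to P9 was lost there (adjusted p = 0.0661), and Cort from P23 to P45 with summed counts (0.508). Leave-outs of a replicate number were not run for single ages or for age within 1 combination.

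The labels do not say that a replicate number marks an animal. Libraries of the same number correlated in their deviations by 0.133 on average between layers of a region (17 of 32 pairs above 0.1), 0.126 between regions of a layer, and 0.143 otherwise, and those of different numbers by -0.045, -0.039, and -0.045. In the same order, 17, 18, and 20 of 32 same-number pairs were above 0.1, against 19, 22, and 18 of 100 pairs of different numbers. The rule for pairing asked for every pair above 0.1, so the main fit did not pair them, although the same-number means were higher in each kind of pair. Single pairs vary widely, so this rule cannot show that the numbers do not mark animals. In the authors' microarray samples a number marks LII and LDeep of the same animal. If the 4 libraries of an age and number share a rat, the age p-values rest on fewer animals than libraries and are too small. The layer and region tests would then leave a pairing unused. With the number as a replicate block the counts were 6 and 5 between layers, 3 and 3 between regions, and 8 with age, with no share of all genes beside them. Of the calls, Cort between regions in LII was gained (LFC -0.58, adjusted p = 0.0217), and those of Penk and Nts from P9 to P23 (adjusted p = 0.0745 and 0.14) and of Crh with age in MEC LII (LFC -0.58, 0.185) were lost. Age contrasts under this setting were fitted with limma and a correlation within numbers, in place of edgeR. The losses therefore join a change of tool with the block. Depth limits Nts most, since 1 count stood for up to 0.253 CPM.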
